A study of Mus musculus with 9 samples.

Results

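The Schwann cell myelin genes were 8 genes of the deposited expression table, namely Mbp, Pmp22, Prx, Mag, Sox10, Ncmap, Cldn19 and Drp2. They were found by their gene symbol, and all 8 were among the 18272 genes of the table and among the 13960 genes that passed the filter on low counts. They were selected on their expression levels in these same 9 libraries, and the rule gives no threshold. Their levels and fold changes are therefore given as a description, with no test. The gene numbers of the table were 17196 for Mbp, 18858 for Pmp22, 19153 for Prx, 17136 for Mag, 20665 for Sox10, 230822 for Ncmap, 242653 for Cldn19 and 13497 for Drp2.

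The libraries came from the tibia of female C57BL/6J mice, bought at 10 to 11 weeks of age, with 3 mice in each of 3 groups. NGT mice had normal glucose tolerance after an injection of vehicle and received saline. T1D mice had type 1 diabetes induced by 1 injection of streptozotocin (STZ), a toxin of insulin-producing beta cells, and received saline. Lira mice also had STZ-induced diabetes and were given liraglutide, a drug that activates the receptor of glucagon-like peptide-1, in daily doses of 0.6 mg/kg. Treatment began 2 weeks after the injection and lasted 8 weeks, but the label of Lira mouse 3 gives 9 weeks. STZ diabetes is a chemical model that lacks the autoimmune onset of the human disease. The tibias had been cleaned of muscle and connective tissue before RNA extraction, and 1 library was made per mouse. Library totals ranged from 13086373 to 16528394 counts.

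Schwann cells are the glial cells of peripheral nerves. A myelinating Schwann cell wraps its membrane many times around an axon and compacts it into myelin, which speeds the conduction of impulses. The transcription factors SOX10 and EGR2 switch on the genes of the myelin proteins, and loss or altered dosage of several of these genes causes inherited neuropathy. Nerve fibers enter bone through the periosteum and run along the vessels of cortex and marrow, and some of them are myelinated.

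The 8 genes cover the parts of the myelin sheath. Mbp encodes myelin basic protein, which holds the cytoplasmic faces of compact myelin together, and Pmp22 encodes a membrane protein of compact myelin whose extra copy causes Charcot-Marie-Tooth disease. Ncmap encodes a small membrane protein of noncompact peripheral myelin. Prx encodes periaxin, which joins DRP2, the product of Drp2, in the complex that ties the outer Schwann cell membrane to the basal lamina. Mag encodes the adhesion protein that faces the axon, and Cldn19 encodes a claudin of the tight junctions in noncompact myelin. Sox10 encodes the transcription factor that Schwann cells need at every stage. Mbp and Pmp22 are not restricted to myelin, since blood cells make other transcripts from the Mbp gene and fibroblasts express Pmp22.

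To show the regulatory sequence in front of these genes, the 250 bases before the start site are printed for 4 of them, 5′ to 3′ in the direction of transcription (RefSeq, GRCm38.p6). Capitals mark matches to GCGNGGG, the core bound by EGR factors, or to ACAAAG or ACAATG, cores bound by SOX factors, searched on both strands.
Prx, chr7:27499074-27499323, plus strand: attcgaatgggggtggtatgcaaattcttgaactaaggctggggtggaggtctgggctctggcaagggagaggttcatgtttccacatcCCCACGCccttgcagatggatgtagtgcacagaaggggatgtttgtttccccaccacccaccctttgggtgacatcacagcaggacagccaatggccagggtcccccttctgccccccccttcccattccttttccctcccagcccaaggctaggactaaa
Ncmap, chr4:135398228-135398477, minus strand: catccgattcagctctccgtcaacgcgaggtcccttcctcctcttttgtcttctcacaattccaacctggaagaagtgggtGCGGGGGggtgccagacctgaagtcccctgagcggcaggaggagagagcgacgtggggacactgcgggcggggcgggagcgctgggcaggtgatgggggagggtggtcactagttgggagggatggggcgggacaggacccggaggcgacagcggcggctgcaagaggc
Mag, chr7:30914864-30915113, minus strand: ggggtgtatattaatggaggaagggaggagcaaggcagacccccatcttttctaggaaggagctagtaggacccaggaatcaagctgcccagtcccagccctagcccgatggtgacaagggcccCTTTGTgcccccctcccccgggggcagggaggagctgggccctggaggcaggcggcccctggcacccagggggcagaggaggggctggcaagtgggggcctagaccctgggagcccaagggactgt
Pmp22, chr11:63128732-63128981, plus strand: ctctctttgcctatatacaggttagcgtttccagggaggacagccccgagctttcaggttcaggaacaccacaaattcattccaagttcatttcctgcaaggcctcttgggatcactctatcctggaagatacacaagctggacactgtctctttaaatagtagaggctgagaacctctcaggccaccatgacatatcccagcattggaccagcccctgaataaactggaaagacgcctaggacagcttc
The table held 12 such windows for 5 of the 8 genes, some of which overlap. A match to the EGR core was present in 4 of the 12 windows, from Prx, Ncmap and Pmp22, and in 20.3% of all 32851 windows of the table. A SOX core was present in 2 of the 12 windows, which are overlapping windows of Mag and share the match, and in 25.2% of all windows. The Pmp22 window shown held neither core. A match describes letters in this window and not binding.

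The levels of the 8 genes varied widely within the NGT and T1D groups, and T1D mouse 2 had the highest level of every gene. Levels are given in CPM (the count of a gene scaled to a common library size, TMM-normalised), with the mice in the order 1, 2 and 3. Mbp was measured at 14.5, 71.3 and 11.2 CPM in NGT mice, at 17.4, 228 and 42.7 CPM in T1D mice and at 29.6, 22.8 and 24.9 CPM in Lira mice. The level in T1D mouse 2 was 3.19 times that of NGT mouse 2, the next highest, and the T1D range enclosed the range of the Lira mice. Pmp22 was measured at 41.1, 65.5 and 19.9 CPM in NGT mice, at 86.3, 250.4 and 46.0 CPM in T1D mice and at 44.2, 43.1 and 28.4 CPM in Lira mice. T1D mouse 2 was again highest, but T1D mouse 1 came next, and all 3 Lira mice lay below all 3 T1D mice.

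The genes of the periaxin complex had the same order of mice at the top. Prx was measured at 2.28, 18.6 and 2.06 CPM in NGT mice, at 2.07, 72.5 and 9.67 CPM in T1D mice and at 8.78, 8.64 and 2.47 CPM in Lira mice. Drp2 was measured at 5.14, 28.4 and 6.25 CPM in NGT mice, at 10.2, 68.4 and 13.4 CPM in T1D mice and at 11.8, 12.1 and 7.46 CPM in Lira mice. For both genes T1D mouse 2 was highest, NGT mouse 2 next and T1D mouse 3 after that, whereas T1D mouse 1 lay among the lower NGT and Lira mice for Prx.

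Mag, Ncmap and Cldn19 were low outside T1D mouse 2. Mag was measured at 0.381, 1.31 and 0.396 CPM in NGT mice, at 0.217, 5.17 and 1.40 CPM in T1D mice and at 0.428, 0.545 and 0.746 CPM in Lira mice. Mag had 4 to 21 counts in every library except T1D mouse 2, where it had 79, so its order among the other mice rests on few reads. Ncmap was measured at 0.508, 3.17 and 0.396 CPM in NGT mice, at 0.381, 13.9 and 1.93 CPM in T1D mice and at 2.85, 1.17 and 0.230 CPM in Lira mice. Cldn19 was measured at 0.190, 4.18 and 1.11 CPM in NGT mice, at 0.489, 19.2 and 2.53 CPM in T1D mice and at 2.28, 1.71 and 0.344 CPM in Lira mice. Ncmap and Cldn19 were lowest in Lira mouse 3 and NGT mouse 1, respectively, and their groups overlapped in all 3 comparisons.

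Sox10, the transcription factor, followed the myelin proteins. It was measured at 0.444, 4.02 and 1.66 CPM in NGT mice, at 0.707, 13.1 and 2.001 CPM in T1D mice and at 2.78, 1.95 and 0.344 CPM in Lira mice. T1D mouse 2 stood 3.26 times above NGT mouse 2, and the other T1D mice lay within the range of the NGT and Lira mice.

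**Figure D1:**
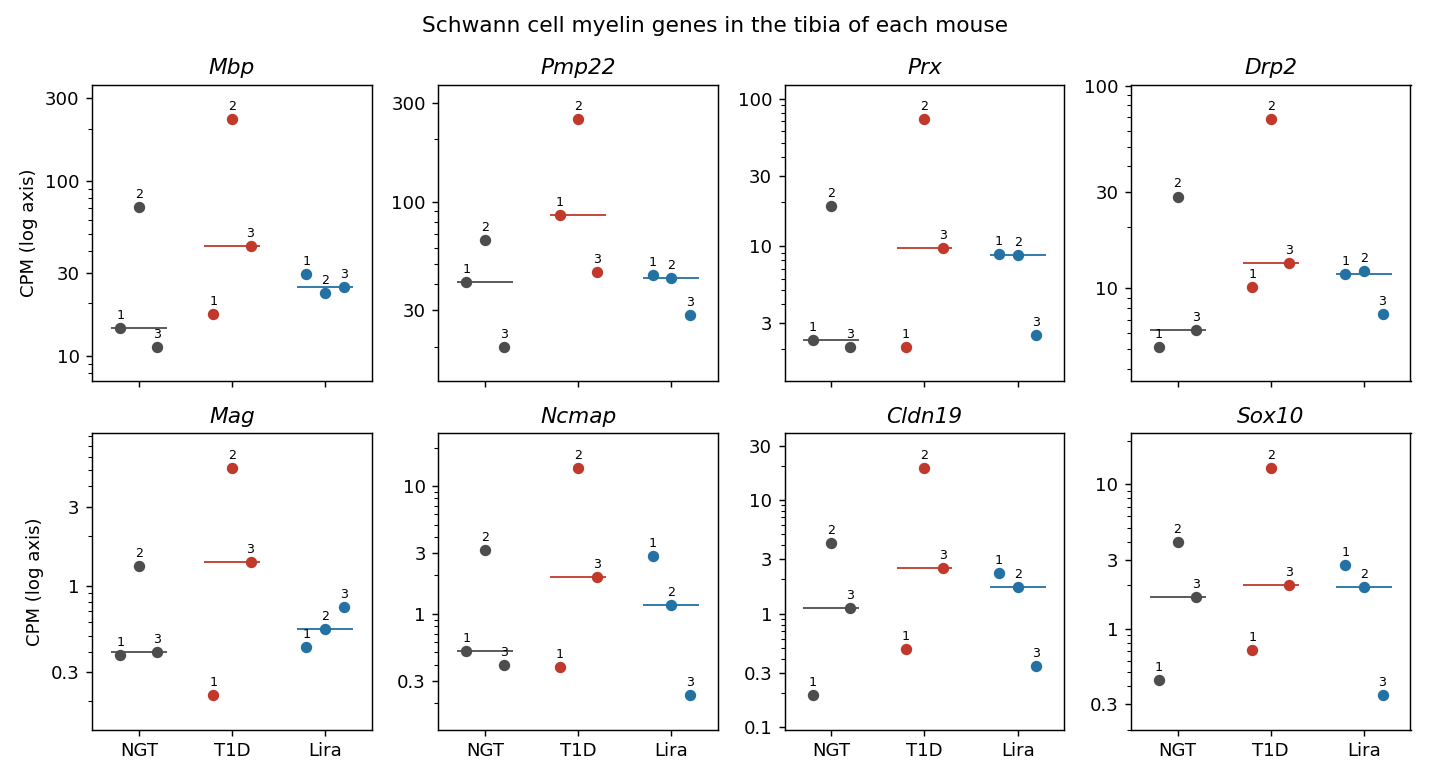
Level of each of the 8 myelin genes in CPM (vertical log axis) in the NGT, T1D and Lira groups, with 1 point per mouse numbered by its label and a line at the group median. T1D mouse 2 is the highest point in all 8 panels, from 5.17 CPM for Mag to 250.4 CPM for Pmp22, and the groups overlap except for Pmp22 in T1D and Lira mice.

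T1D mouse 2 was thus the highest of the 9 libraries for 8 of 8 genes, and NGT mouse 2 was next for 6 of them. The ratio of T1D mouse 2 to the next library ran from 2.41 for Drp2 to 4.59 for Cldn19. The ratio of T1D mouse 2 to the median of the other 8 libraries ran from 5.74 for Pmp22 to 16.6 for Ncmap. The 8 genes together held 10241 counts in T1D mouse 2, 0.0667% of its library, and between 544 and 2541 counts in each other library. Among all genes tested, 83 (0.595%) exceeded every other library more than 2-fold in T1D mouse 2, and all 8 myelin genes were among them. The same share was 3.41% for T1D mouse 1, 3.16% for Lira mouse 3, 0.423% for Lira mouse 1 and lower for each of the other 5 libraries. Since the genes were chosen with these levels known, nothing is read from the 8 of 8.

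On the length-corrected scale (FPKM), Pmp22 and Mbp were the most abundant of the 8 genes. In T1D mouse 2 the FPKM level was 139 for Pmp22, 112 for Mbp, 14.97 for Prx, 9.98 for Drp2, 9.15 for Ncmap, 6.45 for Cldn19, 4.78 for Sox10 and 2.09 for Mag. In the other 8 libraries the FPKM level of Pmp22 ran from 9.67 to 60.2, that of Mbp from 4.04 to 30.6, that of Prx from 0.37 to 3.46 and that of Mag from 0.11 to 0.52. Over these 8 libraries the ranges of Pmp22 and Mbp overlapped each other and lay above those of the other 6 genes. Each of the other 6 overlapped its neighbours in this order.

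The genes kept more even ratios to one another than their levels. In the 5 libraries with at least 100 Prx counts, the FPKM ratio of Pmp22 to Prx ran from 9.29 to 13.6, that of Mbp to Prx from 5.88 to 9.46 and that of Drp2 to Prx from 0.667 to 1.07. The ratio of Cldn19 to Prx ran from 0.307 to 0.540 and that of Sox10 to Prx from 0.319 to 0.577 in the same libraries. Ncmap varied more, from 0.399 to 1.06 times Prx, and so did Mag, from 0.0982 to 0.286 times Prx. Over all 9 libraries, 4 of which held only 26 to 43 Prx counts, the ratios to Prx were wider. They ran from 0.667 to 3.44 for Drp2, from 0.0877 to 0.676 for Cldn19 and from 0.237 to 1.46 for Sox10. The widest was that of Pmp22, which reached 111 in T1D mouse 1. There the summed level of the fibroblast and tendon markers was also the highest (4053 CPM, against 753 to 1831 CPM elsewhere). The sums of osteoblast and osteocyte markers (5573 CPM) and of macrophage markers (2122 CPM) were highest there as well. The part of these cells in the Pmp22 level was not tested.

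**Figure D2:**
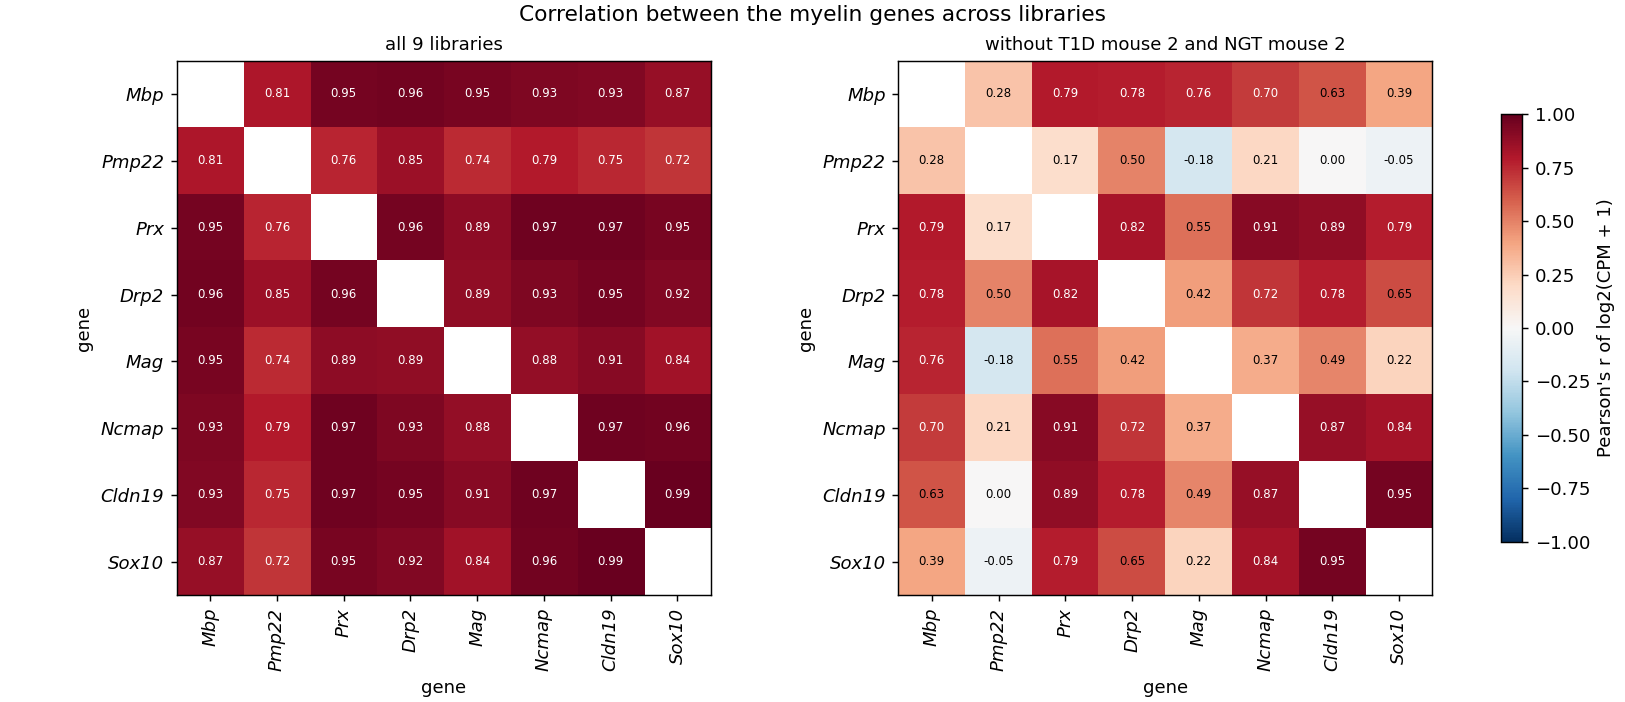
Pearson's r of log2(CPM + 1) for each pair of the 8 myelin genes (both axes list the genes), over all 9 libraries at left and over the 7 libraries without T1D mouse 2 and NGT mouse 2 at right. The 28 pairs range from 0.715 to 0.988 at left, and at right the row of Pmp22 is pale while Prx, Ncmap, Cldn19 and Drp2 stay correlated with each other.

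The 8 genes varied together across libraries. Genes of the same library share its depth, normalisation and tissue makeup, and these differed between libraries. Over the 9 libraries Pearson's r of log2(CPM + 1) ran from 0.715 to 0.988 over the 28 pairs, with a median of 0.927, and Spearman's rho ran from 0.367 to 0.967. Without T1D mouse 2 and NGT mouse 2 the median r was 0.639 (n = 7) and the lowest was -0.18. Prx correlated with the mean of the other 7 genes at 0.973 with all libraries and at 0.933 without these 2, and Drp2 at 0.976 and 0.889. Pmp22 correlated at 0.799 and 0.152, respectively, and Mag at 0.910 and 0.446, so that their relation to this mean was weaker without these 2 mice. Some single pairs lay above these values without the 2 mice, such as Mag with Mbp at r = 0.765 and Pmp22 with Drp2 at r = 0.499 (n = 7).

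Among 13119 other genes compared, those most like the mean of the 8 genes over the 9 libraries were Mal (r = 0.990), Fa2h (r = 0.989), Dusp15 (r = 0.984), Kcna6 (r = 0.983), Cadm4 (r = 0.983) and Bcas1 (r = 0.980). Mal encodes a proteolipid of myelin, Fa2h the enzyme that makes the 2-hydroxy fatty acids of myelin lipids, and Kcna6 a voltage-gated potassium channel. Without T1D mouse 2 and NGT mouse 2 these 6 genes correlated at 0.881 to 0.943 (n = 7). The least alike were Pdcl, Nkrf and Saal1, each with r = -0.91.

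To examine the effect of diabetes, T1D mice were compared with NGT mice. The fitted fold changes of the 8 genes were all positive with all libraries. Without T1D mouse 2 alone 6 of the 8 turned negative, whereas all 8 were positive, from 0.34 for Sox10 to 1.40 for Prx, when the mice numbered 2 were left out of every group. The log2 fold change was 1.57 ± 0.97 (SE) for Mbp, 1.60 ± 0.63 for Pmp22, 1.88 ± 1.28 for Prx and 1.21 ± 0.85 for Drp2. It was 1.69 ± 0.98 for Mag, 1.99 ± 1.36 for Ncmap, 2.02 ± 1.37 for Cldn19 and 1.37 ± 1.17 for Sox10. The median over the 8 genes was 1.64, beside 0.02 over all genes tested. All 8 exceeded a 2-fold rise, as did 5.27% of all genes, but since the genes were chosen with these values known nothing is read from this count. By edgeR's quasi-likelihood test, none of the 13960 genes (0%) was called at an adjusted p under 0.05 and a fold change over 2. In that test 552 genes had an unadjusted p under 0.05. DESeq2 called 0 genes in this comparison, with 697 at an unadjusted p under 0.05.

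Without T1D mouse 2 the median log2 fold change of the 8 genes was -0.20, and 0 of 8 exceeded a 2-fold change in either direction. In that fit Pmp22, at 0.65, and Mag, at 0.20, were the genes with a positive value. It kept NGT mouse 2, the mouse of the same number. Without the mice numbered 2 of all groups the median was 1.15 and 6 of 8 exceeded a 2-fold rise, and with the replicate number as a block it was 1.43 and 7 of 8 did. Without NGT mouse 2, the NGT mouse with the highest levels of all 8 genes, the median was 2.71 and 8 of 8 exceeded a 2-fold rise. The group mean of Prx was 28.1 ± 38.7 CPM (SD, n = 3) in T1D mice and 7.66 ± 9.51 CPM in NGT mice, which shows how wide both groups were.

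Mice of the same number in the NGT and T1D groups resembled each other across all genes, so the groups were also compared within numbers, as a description. Between the mice numbered 2, T1D was higher by 1.24 to 1.96 on the log2(CPM + 1) scale for all 8 genes. Between the mice numbered 3, T1D was higher by 0.17 for Sox10 to 1.84 for Mbp, again for all 8 genes. Between the mice numbered 1 the difference ran from -0.18 for Mag to 1.05 for Pmp22, and 5 of 8 genes were higher in T1D. In all, 21 of 24 within-number differences were positive, and the fit with the number as a block gave a median log2 fold change of 1.43.

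**Figure D3:**
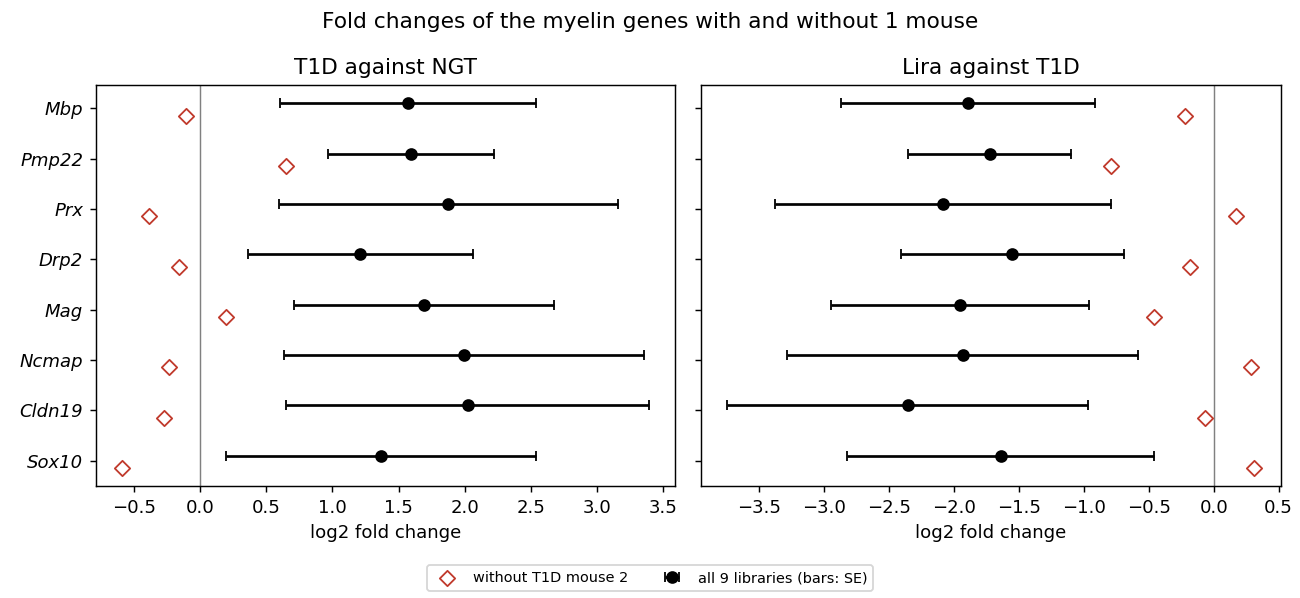
Log2 fold change (horizontal axis) of each of the 8 myelin genes for T1D against NGT (left) and Lira against T1D (right), with filled circles and SE bars for all 9 libraries and open diamonds for the fit without T1D mouse 2. With all libraries the values lie between 1.21 and 2.02 at left and between -1.55 and -2.36 at right, and the diamonds lie between -0.59 and 0.31 except for Pmp22 (0.65 and -0.79).

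To examine the effect of liraglutide, Lira mice were compared with T1D mice, the same 3 T1D mice as above. The log2 fold change was -1.90 ± 0.98 (SE) for Mbp, -1.73 ± 0.63 for Pmp22, -2.09 ± 1.29 for Prx and -1.55 ± 0.86 for Drp2. It was -1.95 ± 0.99 for Mag, -1.94 ± 1.36 for Ncmap, -2.36 ± 1.39 for Cldn19 and -1.64 ± 1.18 for Sox10. The median over the 8 genes was -1.92, beside 0.04 over all genes tested, and all 8 exceeded a 2-fold fall, as did 4.41% of all genes. With the replicate number as a block the median was -1.12 and 5 of 8 exceeded it. Same-numbered T1D and Lira mice were not treated as paired, and their differences did not share a direction. On the log2(CPM + 1) scale 8 of 8 genes were lower in Lira between the mice numbered 2 (median -2.65) and between those numbered 3 (median -0.96), but 1 of 8 was lower between the mice numbered 1 (median 0.94). Pmp22 was the 1 gene of the 8 whose groups did not overlap, with 28.4 to 44.2 CPM in Lira mice and 46.0 to 250.4 CPM in T1D mice, where 3.4% of all genes lay wholly lower in Lira mice. The gap between the nearest Lira and T1D mice was 44.2 against 46.0 CPM.

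None of the 13960 genes (0%) was called in this comparison by edgeR's quasi-likelihood test, where 465 genes had an unadjusted p under 0.05. Without T1D mouse 2 the median log2 fold change of the 8 genes was -0.12, 0 of 8 exceeded a 2-fold change in either direction, and Prx (0.17), Sox10 (0.31) and Ncmap (0.29) turned positive. In that fit Pmp22 had the lowest value of the 8, at -0.79. Without the mice numbered 2 of all groups the median was -0.16, and again 0 of 8 exceeded a 2-fold change.

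Against NGT mice, the 8 genes in Lira mice had log2 fold changes between -0.34 for Drp2 and 0.06 for Ncmap, with SEs of 0.62 to 1.36, a median of -0.27 and 0.04 over all genes. No gene of the table (0%) was called in this comparison by edgeR's quasi-likelihood test, where 109 genes had an unadjusted p under 0.05, or by DESeq2, where 154 had. Without NGT mouse 2 the median was 0.94 and 4 of 8 genes exceeded a 2-fold rise. The spread among Lira mice was narrow for Mbp (25.8 ± 3.48 CPM, SD, n = 3) and Drp2 (10.5 ± 2.61 CPM) and wide for Ncmap (1.42 ± 1.33 CPM). In bulk tissue, fewer Schwann cells and less RNA per Schwann cell cannot be told apart in any of these comparisons.

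The other genes of the Schwann cell and of myelin were followed in 7 companion lists, chosen with earlier results of these data known. Their counts beside the shares of all genes are therefore a description. The lists held 146 genes, of which 121 passed the filter. None was called in any comparison by the quasi-likelihood test of edgeR (Benjamini-Hochberg adjustment), where the lowest adjusted p of the lists was 0.977 for T1D against NGT, 0.978 for Lira against T1D and 0.999 for Lira against NGT. At an unadjusted p under 0.05, 8 companion genes were higher in T1D mice and 1 was lower, beside 2.36% and 1.6% of all genes. For Lira against T1D, 1 was higher and 11 were lower, beside 1.55% and 1.78% of all genes. These counts depended on the mice in the fit. Without T1D mouse 2 they were 3 and 2 for T1D against NGT and 0 and 3 for Lira against T1D, and without the mice numbered 2 of all groups 2 and 2, and 0 and 3. With the replicate number as a block they were 14 and 1, and 0 and 11. Over the fits that left out 1 mouse each, the number higher in T1D ran from 3 to 18 (16 without NGT mouse 2 and 18 without NGT mouse 1), and the number lower in Lira against T1D from 3 to 20 (20 without T1D mouse 1). The median log2 fold change of the 121 genes was 0.37, -0.35 and -0.05 in the 3 comparisons. In T1D mice 24 companion genes (19.8%, beside 5.27% of all genes) had a fitted change over 2-fold upwards, 11 of 120 without T1D mouse 2 and 20 of 121 without the mice numbered 2 of all groups. In Lira against T1D mice 30 (24.8%, beside 4.41% of all genes) had one downwards, 16 of 120 without T1D mouse 2 and 15 of 121 without the mice numbered 2. The groups did not overlap for 6 companion genes higher in T1D (4.96%, beside 3.52% of all genes) and for 14 lower in Lira against T1D mice (11.6%, beside 3.4%).

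In T1D mouse 2, 19 of the 121 companion genes (15.7%) exceeded every other library more than 2-fold, beside 0.595% of all genes. Of the 21 tested genes of compact and noncompact myelin, 6 did so, and 7 had a fitted rise over 2-fold in T1D. Mal was measured at 1.33, 6.88 and 0.633 CPM in NGT mice, at 1.03, 29.3 and 4.13 CPM in T1D mice and at 2.85, 2.73 and 0.976 CPM in Lira mice. Its mice thus had the order of Prx at the top, and its log2 fold change was 1.96 ± 1.22 (SE) in T1D and -2.39 ± 1.24 in Lira against T1D mice. By mean FPKM, Dag1 and Cd9 were among the most abundant genes of this list, and Dag1, which encodes the laminin receptor dystroglycan made by muscle as well, ran from 280 to 548 CPM with a log2 fold change of -0.41 ± 0.28 in T1D.

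Gpm6b, which encodes a membrane glycoprotein, was named after its values were seen. It was measured at 6.16, 7.19 and 6.41 CPM in NGT mice, at 27.3, 22.6 and 10.3 CPM in T1D mice and at 5.50, 6.39 and 5.85 CPM in Lira mice. All 3 T1D mice lay above all NGT and Lira mice, with T1D mouse 1 and not T1D mouse 2 highest. Its log2 fold change was 1.61 ± 0.33 in T1D against NGT (adjusted p = 0.977 by edgeR's quasi-likelihood test) and -1.76 ± 0.33 in Lira against T1D (adjusted p = 0.978). DESeq2 called 1 gene in Lira against T1D, and it was Gpm6b (log2 fold change -1.77, adjusted p = 0.0367). Osteoblasts express Gpm6b as well, and the summed osteoblast and osteocyte markers were highest in T1D mouse 1, at 5573 CPM against 206 to 1385 CPM elsewhere. Their part in the result was not tested.

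Of the 15 tested genes of node, paranode and adhesion, 6 exceeded every other library over 2-fold in T1D mouse 2. Nfasc, which encodes the neurofascin of nodes and paranodes, had a log2 fold change of 1.67 ± 0.89 in T1D and -2.29 ± 0.91 in Lira against T1D mice. Its level was 2.94, 10.2 and 2.80 CPM in T1D mice and 1.93, 0.935 and 0.402 CPM in Lira mice, with no overlap between them. Mpdz, a scaffold of cell junctions, went the other way, with 65.8 to 72.0 CPM in T1D mice and 102 to 128 CPM in NGT mice and a log2 fold change of -0.76 ± 0.23 (adjusted p = 0.977). By mean FPKM, Ank3, Mpdz and Epb41l2 were the most abundant genes of this list.

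Among the 22 tested genes of neuregulin signalling, Schwann cell receptors and transcription factors, 3 exceeded every other library over 2-fold in T1D mouse 2. Egr2, the transcription factor of myelination, was measured at 1.59, 1.86 and 0.792 CPM in NGT mice, at 3.21, 6.81 and 1.47 CPM in T1D mice and at 1.57, 1.32 and 0.976 CPM in Lira mice. Its log2 fold change was 1.43 ± 0.58 in T1D and -1.57 ± 0.59 in Lira against T1D (adjusted p = 0.977 and 0.978 by edgeR's quasi-likelihood test). Erbb3, the neuregulin receptor of Schwann cells, did not share the pattern, with 2.06 to 6.26 CPM in NGT, 1.03 to 5.89 CPM in T1D and 2.53 to 6.15 CPM in Lira mice and a log2 fold change of -0.06 ± 0.68 in T1D. By mean FPKM, Hdac2, Jun and Tead1 were the most abundant genes of this list.

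The Schwann cell identity list, with genes of non-myelinating Schwann cells, had 19 of 20 tested genes on the higher side in T1D and 19 of 20 on the lower side in Lira against T1D mice, beside 52.1% and 44.7% of all genes. Of these, 3 and 4 had an unadjusted p under 0.05, beside 2.36% and 1.78% of all genes. In T1D mouse 2, 4 of the 20 exceeded every other library over 2-fold. Among these 4, Kcna1 was also counted in the node list and Lgi4 in the list of neuregulin signalling. Without T1D mouse 2, 14 of 20 lay on the higher side in T1D (1 at an unadjusted p under 0.05). On the lower side in Lira against T1D mice lay 16 of 20 (2 at an unadjusted p under 0.05). S100b, a calcium-binding protein of Schwann cells, was measured at 2.92, 2.71 and 1.35 CPM in NGT mice, at 5.27, 11.9 and 3.60 CPM in T1D mice and at 2.43, 1.48 and 2.81 CPM in Lira mice. All T1D mice lay above all other mice, and its log2 fold change was 1.57 ± 0.52 and -1.62 ± 0.52 in the 2 comparisons (adjusted p = 0.977 and 0.978 by edgeR's quasi-likelihood test). Apod, which encodes apolipoprotein D and is also made by endoneurial fibroblasts, lay between 79.6 and 170.2 CPM in T1D mice, above NGT mice (49.8 to 62.7 CPM) and Lira mice (29.9 to 68.8 CPM). Markers of immature and non-myelinating Schwann cells had log2 fold changes in T1D of 0.63 ± 0.62 for Ngfr, 0.72 ± 0.57 for Ncam1, 0.17 ± 0.43 for L1cam, 0.58 ± 0.40 for Scn7a and 0.96 ± 0.86 for Cdh19. Gfap was low, at 0 to 4.53 CPM, with a log2 fold change of 1.61 ± 1.64 in Lira against NGT mice.

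None of the 15 tested genes of Charcot-Marie-Tooth disease and myelin maintenance exceeded a 2-fold change in T1D or Lira mice, and the lowest value in T1D belonged to Fgd4 (-0.47 ± 0.26). Of the 8 tested genes of the repair Schwann cell, Atf3, an injury-induced transcription factor, had the highest value (1.95 ± 1.23), which came from T1D mouse 1 at 110 CPM against 13.2 and 5.34 CPM in the other T1D mice. Of the 24 tested genes of myelin lipid synthesis, 3 were over 2-fold higher in T1D (beside 5.27% of all genes) and 4 over 2-fold lower in Lira against T1D mice (beside 4.41%). These counts were 0 and 4 without T1D mouse 2, and 3 and 0 in the fit blocked by replicate number. In this list Ugt8a and Fa2h followed the 8 genes. Ugt8a, which makes galactosylceramide, had a log2 fold change of 1.995 ± 1.37 in T1D, the largest among companion genes with a mean of at least 1 CPM, with 5.89 CPM in T1D mouse 2 and at most 1.47 CPM elsewhere. Fasn and Elovl6, fatty acid enzymes that adipocytes also express, were the lowest of the lists in Lira against NGT mice (-1.27 ± 1.60 and -1.27 ± 1.53), and Fasn was highest in NGT mouse 1 and T1D mouse 1, at 807 and 781 CPM.

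**Figure D4:**
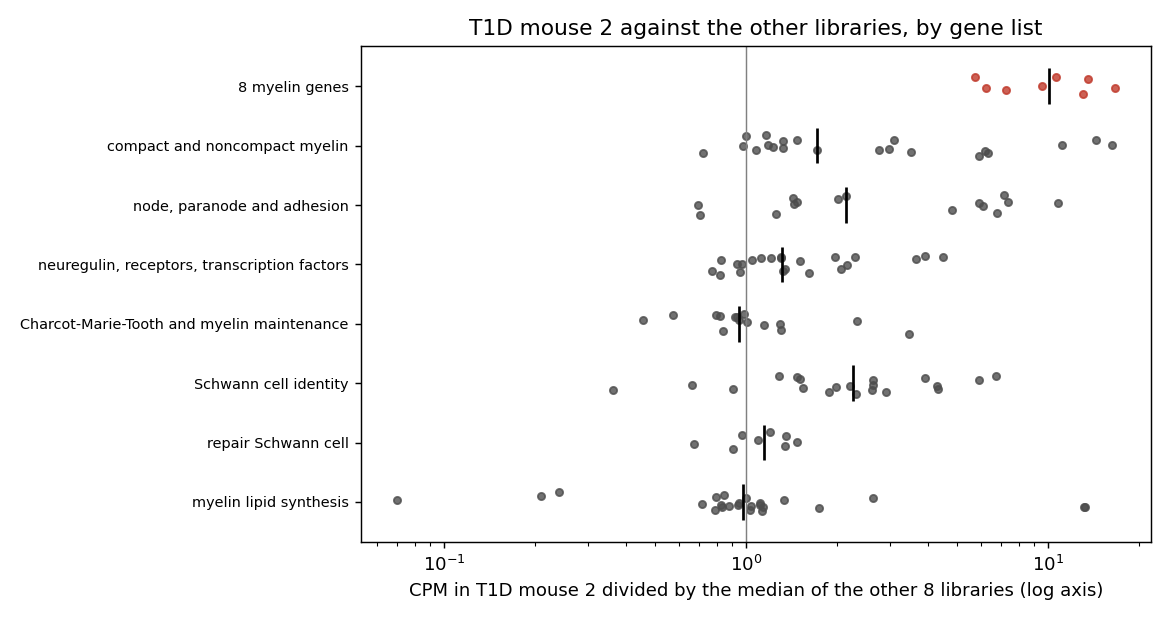
CPM in T1D mouse 2 divided by the median of the other 8 libraries (horizontal log axis) for the 8 myelin genes (red) and the tested genes of the 7 companion lists (grey), with a vertical bar at each list's median. The 8 genes lie between 5.74 and 16.6, the lists of myelin, of node and paranode and of Schwann cell identity spread from around 1 up to similar values, and the list of Charcot-Marie-Tooth and myelin maintenance centers near 1.

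Markers of other cell types differed between the libraries as well. The defining oligodendrocyte genes Mog and Mobp were near 0, with 0 to 2 and 0 to 3.01 counts in a library, and Aspa, also expressed outside the brain, was the 1 gene of that list that passed the filter (62 to 170 counts). Of 8 melanocyte genes 2 passed the filter, Tyr (10.2 to 45.7 counts) and Mitf (251 to 436 counts), which other cells express as well, while Tyrp1, Dct and Pmel had at most 7 counts in a library. The melanocyte sum was 21.5 to 28.9 CPM in NGT mice, 22.4 to 26.2 CPM in T1D mice and 19.2 to 30.6 CPM in Lira mice. Neurons of the limb keep their cell bodies outside bone. Of 24 genes of axons and neurons 3 passed the filter. Nefl, a neurofilament gene, had 0 to 1 count in a library, whereas Stmn2 had 31 to 178 and Uchl1 23 to 914 counts. Summed over the 3 genes that passed, the level was 7.20 to 20.5 CPM in NGT mice, 6.40 to 58.7 CPM in T1D mice and 6.31 to 23.6 CPM in Lira mice. T1D mouse 1 was highest, and 49.7 of its 58.7 CPM came from Uchl1. Without Uchl1 the sum was 8.97 CPM there and 6.02 CPM in T1D mouse 2, inside the NGT range of 4.41 to 11.7 CPM. In T1D mouse 3 it was 2.20 CPM, below that range. The median log2 fold change of the 3 genes was 0.86 in T1D and -0.91 in Lira against T1D mice. Macrophage genes had a median log2 fold change of 2.31 in T1D (7 of 10 over 2-fold higher, beside 5.27% of all genes, 5 at an unadjusted p under 0.05, beside 2.36%, and 0 called) and of -1.45 in Lira against T1D mice (7 of 10 over 2-fold lower, beside 4.41% of all genes, 2 at an unadjusted p under 0.05, beside 1.78%, and 0 called, by edgeR's quasi-likelihood test). Their sum was 68.0 to 371 CPM in NGT mice, 151 to 579 CPM in Lira mice and 2122, 145 and 248 CPM in T1D mice 1, 2 and 3, so that this sum was highest in T1D mouse 1. Without T1D mouse 1 the macrophage medians were 0.40 and 0.13, with 0 of 10 genes over 2-fold higher and 0 of 10 over 2-fold lower, respectively. With all libraries, osteoblast and osteocyte genes had medians of 0.81 in T1D and -1.06 in Lira against T1D mice. In this order, fibroblast and tendon genes had 0.61 and -0.68 and neuromuscular junction genes 0.71 and -0.40. Signs were reversed for skeletal muscle (-0.19 and 0.05), endothelial (-0.13 and 0.29), neutrophil (-0.003 and 1.10) and B cell and T cell genes (-0.02 and 0.76). Erythroid genes were higher in both (0.98 and 0.84). The part of these cell types in the myelin gene values was not tested. Skeletal muscle genes took 121032 to 318207 CPM in every library although the bones had been cleaned of muscle. The muscle sum of T1D mouse 2 (238927 CPM) lay inside that range. The mice numbered 2 had the lowest sums of neutrophil genes of their groups (8.43 CPM in NGT, 57.4 CPM in T1D and 124 CPM in Lira, against 469 to 5494 CPM in the other 6 mice) and the lowest sums of erythroid genes (391, 493 and 830 CPM against 1947 to 29142 CPM). NGT mouse 2 and T1D mouse 2 were the mice with the highest myelin genes, but Lira mouse 2, also low in these marrow genes, had 92.1 CPM summed over the 8 genes, between Lira mouse 1 (103 CPM) and Lira mouse 3 (64.9 CPM). The part of tissue makeup in the levels of the 8 genes was not tested.

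**Figure D5:**
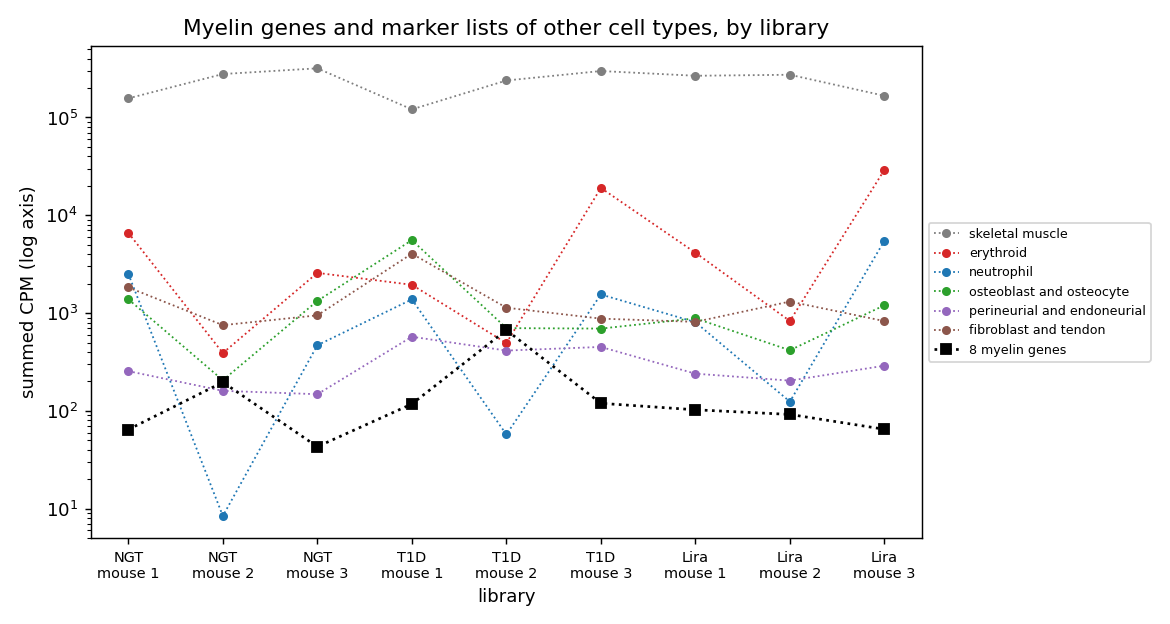
Summed CPM (vertical log axis) of the 8 myelin genes (black squares) and of the marker lists of 6 other tissues or cell types (colored circles) in each of the 9 libraries on the horizontal axis, with dotted lines to guide the eye. The myelin sum peaks in T1D mouse 2 at 671 CPM and is next highest in NGT mouse 2 at 197 CPM, where neutrophil and erythroid sums are low, while it stays at 92.1 CPM in Lira mouse 2.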

How the data were processed

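Transcripts of 9 tibias were measured by RNA-seq, 1 library per mouse. The authors aligned clean reads and deposited counts per gene, which the headers call read counts. The counts the authors deposited are taken here for expected counts, since 30.2% are not whole. They stand beside FPKM values, scaled by the authors for gene length and library total. The submitters' processing notes name mm9, and the aligner and counter are not given in the sources used here. Group means and comparisons deposited by the authors were not used, and the number of sample columns that matched no sample was 0. Samples were grouped by their labels. Which 3 tibias of a group were sequenced was random per the study's methods. Where gene models overlap, how reads were split is not given.

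Counts were rounded, and a gene was kept where 3 or more libraries held 10 or more counts (13960 of 18272 genes). The totals limit precision mainly for genes with few counts. The fit used edgeR 4.0.16 under R 4.3.3 (TMM, glmQLFit and glmQLFTest on 3 group means over all 9 libraries). A gene was called at a Benjamini-Hochberg adjusted p under 0.05 over all genes and a fold change over 2. The procedure was tested on simulated data. Alternatives were DESeq2 1.42.0, library size in place of TMM, TMM without muscle genes, no filter, at least 50 counts, fits of only the compared groups, the replicate number as a block, ratios of mean FPKM, and leaving out each mouse. Leaving out the mice numbered 2 of all groups, and the block with only NGT and T1D libraries, were chosen after seeing the data.

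The 8 genes and all lists were chosen with earlier results of these data known. Named genes were the 8, 10 further Schwann cell genes, per comparison the 3 largest rises and falls of the companion lists at a mean of at least 1 CPM, up to 3 most abundant genes per list, and the 6 most and 3 least correlated genes. Any other gene is said to have been picked with its values in view, or serves as an example of its list. Some genes that this rule names are not reported here.

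Replicate numbers were checked by correlating deviations from group means (log2 CPM) across genes. Same-numbered mice of the NGT and T1D groups had r = 0.583, 0.647 and 0.283, all above 0.1. These groups were therefore also compared within numbers and in a fit with the number as a block. The main fit, with its SEs and p-values, was unpaired. Mice with different numbers could be alike too, such as NGT mouse 1 and Lira mouse 3 (r = 0.780). The pairing by number comes from the data and is not stated by the study. Promoter windows were taken from RefSeq on GRCm38.p6, which is not the build of the counts.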

Additional observations from a re-analysis of the deposited data

How the results depend on the processing

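Medians over the 8 genes are log2 fold changes, which were 1.64 for T1D against NGT, -1.92 for Lira against T1D and -0.27 for Lira against NGT. Leaving out 1 mouse at a time gave -0.20 (without T1D mouse 2) to 2.71 (without NGT mouse 2), -2.44 to -0.12 (without T1D mouse 2) and -0.66 to 0.94 (without NGT mouse 2). By edgeR's quasi-likelihood test 0 genes were called in every such fit. For T1D against NGT these fits ran from -0.10 to 2.90 for Mbp, -0.38 to 3.69 for Prx, -0.59 to 2.33 for Sox10, -0.24 to 3.55 for Ncmap, -0.27 to 3.52 for Cldn19 and -0.16 to 2.43 for Drp2. For Lira against T1D they ran from -2.64 to 0.17 for Prx, -2.21 to 0.31 for Sox10 and -2.97 to 0.29 for Ncmap. The mice numbered 2 left out of all groups gave 1.15, -0.16 and 0.87, with Sox10 at 0.22 and Ncmap at 0.43 for Lira against T1D. With the replicate number as a block, the medians were 1.43, -1.12 and 0.32 and 0 genes were called (752, 507 and 160 at an unadjusted p under 0.05). With only NGT and T1D libraries, the block gave 1.36 and 0 called genes, with 1931 at an unadjusted p under 0.05. The block changed no other call. Same-numbered T1D and Lira mice (r = -0.24, 0.61 and 0.27) were not treated as paired. DESeq2 called 1 gene, Gpm6b, for Lira against T1D and 0 for the others. The other scalings, filters and the FPKM ratios kept the 3 medians within 1.64 to 1.74, -1.98 to -1.91 and -0.27 to -0.22. With at least 50 counts some of the 8 genes fell out, so no median was formed. Without TMM the median of all genes shifted to 0.09 for T1D against NGT. The causes of these changes were not tested beyond the mouse left out. Mag, Cldn19, Ncmap and Sox10 had under 60 counts in every library except T1D mouse 2, which limits their order among the others.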

Other observations

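Of the 83 genes that exceeded every other library over 2-fold in T1D mouse 2, 56 were neither among the 8 myelin genes nor in the companion lists. The largest ratio belonged to Mss51, a skeletal muscle gene, at 1081 CPM in T1D mouse 2 and 68.7 CPM in Lira mouse 1, the next highest. Dusp15, among the genes most like the 8, was measured at 13.4 CPM in T1D mouse 2 and at 0.0574 to 2.71 CPM elsewhere. Cntf, a trophic factor made by Schwann cells, was measured at 15.6 CPM there and at 0.475 to 3.48 CPM elsewhere. Mss51 and Cntf were named after their values were seen.

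The list of perineurial and endoneurial genes, which mark the sheath and the fibroblasts of nerves, summed to 414 to 573 CPM in T1D mice, 148 to 255 CPM in NGT mice and 204 to 290 CPM in Lira mice. Apod and Spp1 made up 38.3% to 78.3% of the sum, and Spp1 is also a gene of bone cells. Without them the list summed to 98.0 to 168 CPM in T1D mice, 70.9 to 121 CPM in NGT mice and 80.1 to 126 CPM in Lira mice, and the groups overlapped. Of its 15 tested genes 2, Cldn1 and Moxd1, exceeded every other library over 2-fold in T1D mouse 2, at 13.7 and 3.27 CPM, while Sox9, Clec3b and Osr2 were highest in T1D mouse 1 (17.5, 37.0 and 9.30 CPM), Ntn4 in Lira mouse 1 (11.8 CPM) and Wif1 in Lira mouse 2 (11.4 CPM). These sums were not tested.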
